A study of Homo sapiens with 6 samples.

Results

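The zinc finger gene clusters of band 19p13.2 were examined in DNMT3B KO cells and in HCT116 cells, with 3 RNA-seq libraries from each line. HCT116 is a human colorectal carcinoma line, labelled as wild type, and DNMT3B KO is 1 line derived from it in which the DNA methyltransferase gene DNMT3B was knocked out. Both were grown untreated in McCoy's medium. The 36 genes described here were taken by symbol from the 60666 genes listed in each library, and each symbol matched 1 row. They lie on chromosome 19 in a distal interval of 11 genes, from ZNF317 to ZNF846 (9140397 to 9793180, hg38), and a proximal interval of 25 genes, from ZNF653 to ZNF791 (11483427 to 12640098, the end of ZNF490, within which ZNF791 lies on the opposite strand). Separate cultures are not stated for the replicate libraries, and each p-value is therefore relative to the spread between libraries, which may be technical.

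Most genes of these clusters encode proteins with tandem C2H2 zinc fingers, which bind DNA, and many of them carry a KRAB domain, which recruits the corepressor TRIM28 (also called KAP1). TRIM28 in turn brings in the H3K9 methyltransferase SETDB1 and HP1 proteins, and the family is best known for silencing transposable elements. Zinc finger genes arose by tandem duplication, so neighbours are often close paralogues, and the clusters on chromosome 19 are themselves known to carry H3K9me3 over gene bodies in many human cells. DNMT3B is a de novo DNA methyltransferase, and the study asked how it acts at heterochromatin marked by H3K9me3. The files hold RNA counts only, so DNA methylation, histone marks and DNA copies of the clusters were not analysed here.

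The estimated counts summed to 56277217 to 67624429 in DNMT3B KO libraries and to 55436267 to 68274783 in HCT116 libraries. Levels are normalised CPM, the counts scaled to library size with TMM factors, and a count of 0 allows up to 3 counts in a library, which is on average 0.0459 CPM in DNMT3B KO and 0.0506 CPM in HCT116. Floors and counting intervals cover the error of counting alone, because reads that carry no molecular identifier are not independent molecules. The targeted gene had 2.54, 2.87 and 2.83 CPM in DNMT3B KO libraries, against 38.5, 30.1 and 39.5 CPM in HCT116 libraries, and fell by 3.71 on the log2 scale (standard error 0.15, adjusted p = 2.5e-06 from edgeR). Colorectal epithelial markers summed to 2340 to 2530 CPM in DNMT3B KO and 4750 to 5550 CPM in HCT116, with 10 of 14 at 1 CPM or more in either line, whereas the markers of fibroblasts, blood and immune cells, endothelium and neural cells summed to at most 18, 2.35, 1.59 and 2.65 CPM in DNMT3B KO and 19.9, 1.88, 1.26 and 1.61 CPM in HCT116, with LUM at no count. Whether this epithelial difference has a part in the results below was not tested. Of 16959 genes tested across the whole table, 4761 (28.1%) changed at an adjusted p under 0.05 by the quasi-likelihood F test of edgeR. Without DNMT3B KO replicate 1, 2 or 3 that number was 3148, 3049 or 3095, and without HCT116 replicate 1 it was 3109.

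RefSeq (GRCh38.p14) gave a promoter window of 300 bases, 250 before the start and 50 after it, for 34 of the 36 genes, without ZNF559 and ZNF763. Printed here are the 250 bases before the start of 3 of the genes that lost their transcripts in the proximal interval (ZNF440, ZNF700 and ZNF136), of the retained genes at either edge of that stretch (ZNF823 and ZNF44), and of ZNF266, which lost its transcripts in the distal interval. Each is written 5′ to 3′ on the strand of its gene, with CpG dinucleotides and the motif CCAATCA in capitals.
ZNF266: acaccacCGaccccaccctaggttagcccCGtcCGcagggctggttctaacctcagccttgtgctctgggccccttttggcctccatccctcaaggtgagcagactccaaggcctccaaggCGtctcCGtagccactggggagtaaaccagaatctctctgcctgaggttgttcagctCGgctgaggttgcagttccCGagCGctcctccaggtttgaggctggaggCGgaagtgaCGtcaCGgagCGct
ZNF823: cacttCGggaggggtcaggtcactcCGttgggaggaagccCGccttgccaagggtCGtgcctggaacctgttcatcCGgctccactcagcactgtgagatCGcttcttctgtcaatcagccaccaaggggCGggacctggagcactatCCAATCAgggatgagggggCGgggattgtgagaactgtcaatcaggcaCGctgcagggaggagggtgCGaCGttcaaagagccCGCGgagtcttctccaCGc
ZNF440: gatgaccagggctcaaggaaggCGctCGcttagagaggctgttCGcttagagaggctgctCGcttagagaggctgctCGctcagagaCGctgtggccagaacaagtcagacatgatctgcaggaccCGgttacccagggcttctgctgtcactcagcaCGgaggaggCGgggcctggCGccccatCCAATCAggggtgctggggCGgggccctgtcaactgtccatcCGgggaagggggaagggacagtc
ZNF700: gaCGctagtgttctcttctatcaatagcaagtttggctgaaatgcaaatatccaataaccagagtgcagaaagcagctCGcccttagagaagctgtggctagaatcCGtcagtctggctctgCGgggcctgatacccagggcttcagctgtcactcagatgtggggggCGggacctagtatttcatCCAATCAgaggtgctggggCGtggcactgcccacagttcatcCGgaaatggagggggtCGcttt
ZNF136: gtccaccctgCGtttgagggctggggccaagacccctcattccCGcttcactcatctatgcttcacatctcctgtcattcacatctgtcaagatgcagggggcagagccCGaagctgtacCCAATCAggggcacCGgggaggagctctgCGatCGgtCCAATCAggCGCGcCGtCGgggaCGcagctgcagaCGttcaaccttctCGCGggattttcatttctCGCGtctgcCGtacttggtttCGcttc
ZNF44: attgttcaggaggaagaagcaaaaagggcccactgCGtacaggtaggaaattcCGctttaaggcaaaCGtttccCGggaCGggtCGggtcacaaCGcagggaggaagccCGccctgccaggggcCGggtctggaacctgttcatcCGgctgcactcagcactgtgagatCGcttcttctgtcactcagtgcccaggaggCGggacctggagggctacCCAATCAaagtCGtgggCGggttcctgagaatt
In order, these stretches are chr19:9435574-9435823 (minus strand), chr19:11738947-11739196 (minus), chr19:11814023-11814272 (plus), chr19:11924857-11925106 (plus), chr19:12162846-12163095 (plus) and chr19:12294884-12295133 (minus).

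Most proximal promoter windows held the letters of a CCAAT box, and whether these act there was not tested. The motif CCAATCA, chosen after the sequences were read and searched on both strands, was in the windows of 22 of 24 proximal genes, all but ZNF653 and ZNF799, and of 0 of 10 distal genes, against 6.95% of 35116 RefSeq promoters of the same length. In the stretches printed, 58 bases separated it from the RefSeq start of ZNF440 and 57 from that of ZNF700, and ZNF136 held 2 copies. The retained edge genes ZNF823 and ZNF44 held it too, with 95 and 26 bases between the motif and the start. The windows of ZNF490 and ZNF791 overlap, and neighbours are often close paralogues, so the windows counted are not independent. Of 4 other motifs searched on both strands, AANATGGCG, the motif of YY1, was in 3 of the 34 windows (ZNF121, ZNF561 and ZNF562, neighbours in the distal interval), against 3.19% of all promoters. The palindromic NRF1 motif was in 2 windows (ZNF699 and ZNF653), against 1.24%. The ZBTB33 motif and the E-box CACGTG were in 0 windows, against 0.424% and 7.26%. CpG ratios of the lost and the retained genes overlapped. The ratio of observed to expected CpG was 0.537 to 0.799 (median 0.605) in 5 genes switched off in DNMT3B KO cells and 0.472 to 0.912 (median 0.685) in 16 genes that had at least 1 CPM in HCT116 and were not switched off. In the 13 genes under 1 CPM in HCT116 it was 0.344 to 0.931 (median 0.606), and over all RefSeq promoters the median was 0.579.

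**Figure D1:**
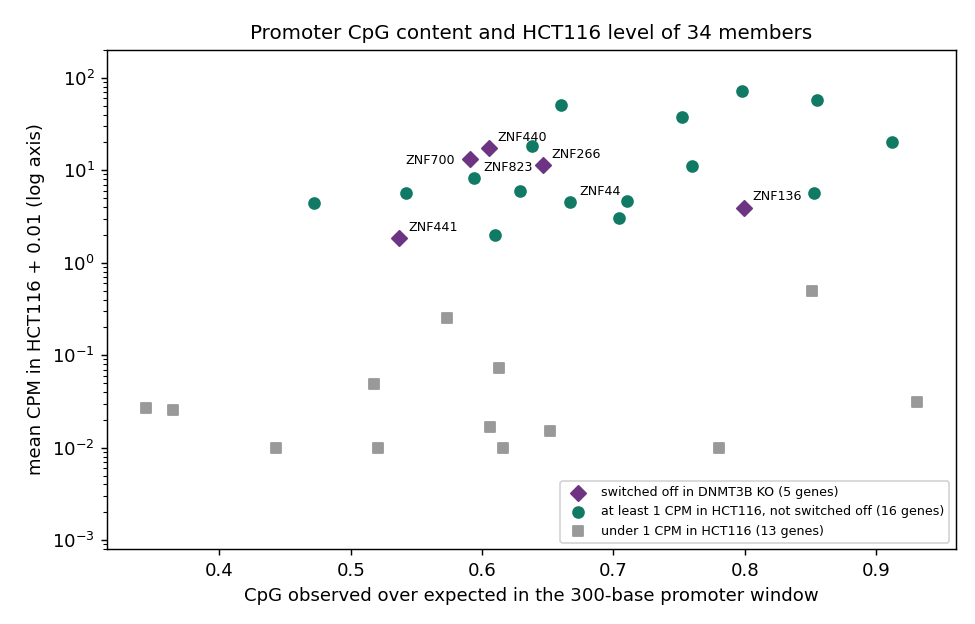
Mean normalised CPM in HCT116 plus 0.01 (log axis) against the observed over expected CpG ratio of the 300-base promoter window, 1 point per gene for 34 genes. Diamonds are the 5 genes switched off in DNMT3B KO, circles 16 other genes with at least 1 CPM in HCT116 and squares 13 genes below that; the diamonds, from 0.537 to 0.799, lie within the range of the circles, 0.472 to 0.912.

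In the proximal interval, all 5 tested genes of one stretch lost their transcripts in DNMT3B KO cells. The other genes of that stretch were low or silent in both lines. Between ZNF823 and ZNF44, which kept their transcripts, lie 13 of the zinc finger genes, from ZNF441 to ZNF136 (11767000 to 12189871, 422.9 kb), and 20 other listed genes. All 33 together had 5, 4 and 2 counts in DNMT3B KO libraries, against 2813, 2675 and 1917 counts in HCT116 libraries. The limits of this stretch were set after the values were seen, so its sums are a description with no test. Of its genes, 5 had any count in a DNMT3B KO library, against 16 in an HCT116 library, which follows from the same choice of limits. Over all 60666 listed genes, 23651 to 24256 had a count in a single DNMT3B KO library and 22210 to 23876 in a single HCT116 library.

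ZNF440, on the plus strand from 11814273 to 11835216, was the highest of the stretch in CPM. It had 3, 2 and 2 counts in DNMT3B KO libraries, against 1265, 1147 and 777 counts in HCT116 libraries, which is 0.0352 ± 0.00575 CPM in DNMT3B KO and 17.5 ± 1.87 CPM in HCT116 (SD, n = 3 each). All DNMT3B KO libraries were at or under the floor of 3 counts, and all HCT116 libraries were far above them. ZNF440 fell by 8.87 on the log2 scale (standard error 0.24, adjusted p = 3.8e-07 from edgeR).

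ZNF700 (11925068 to 11950773, plus strand) had a single count over the DNMT3B KO libraries, in replicate 2. Its levels were 0, 0.0168 and 0 CPM in DNMT3B KO, against 13.3, 12.8 and 13.8 CPM in HCT116, so the HCT116 libraries lay close together and far above all DNMT3B KO libraries. HCT116 exceeded DNMT3B KO 2623-fold, with an exact 95% interval for counting error of 470 to 103647 (adjusted p = 1.8e-06 from edgeR). Divided by the length of its merged exons, ZNF700 was the 5th most abundant of the 36 genes in HCT116, with 4.01 CPM per kb, and ZNF440 the 9th, with 2.71 CPM per kb.

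ZNF136 (12163064 to 12189871, plus strand), whose product is a KRAB zinc finger repressor, had 0, 0 and 0 CPM in DNMT3B KO libraries, against 4.23, 3.75 and 3.83 CPM in HCT116 libraries. Against a floor of 3 counts per library it was at least 85.8-fold lower in DNMT3B KO (adjusted p = 4.9e-05 from edgeR). ZNF441 (11767000 to 11784078, plus strand), at the other end of the stretch, had 0.0139, 0 and 0 CPM in DNMT3B KO, against 1.69, 2.01 and 1.82 CPM in HCT116. With a single DNMT3B KO count, the HCT116 level was 363-fold that of DNMT3B KO, with an exact 95% interval for counting error of 64.7 to 14381 (adjusted p = 5.0e-05 from edgeR). In HCT116, ZNF136 and ZNF441 were below ZNF440 and ZNF700, and their losses rest on fewer counts.

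The other 9 zinc finger genes of the stretch were too low to be tested. ZNF433, ZNF878 and ZNF625 had no count in any of the 6 libraries. ZNF491 had 1, 0 and 0 counts in DNMT3B KO and 1, 2 and 0 in HCT116, and ZNF439 and ZNF69 had no count in DNMT3B KO and at most 3 in an HCT116 library. For these genes neither line exceeded the floor, so no difference was detectable at this depth. ZNF20 had no count in DNMT3B KO, against 36, 6 and 5 counts in HCT116, and ZNF763 had no count against 15, 19 and 0. ZNF844 had its 12 counts in HCT116 replicate 2 alone.

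One non-coding gene of the stretch moved with them. ZNF433-AS1, a long non-coding RNA gene on the plus strand (11987617 to 12046275) that runs antisense to ZNF433 and ZNF878, had no count in DNMT3B KO, against 3.06, 3.97 and 2.16 CPM in HCT116, at least 66.8-fold lower (adjusted p = 0.00017 from edgeR). ZNF441, ZNF440, ZNF700, ZNF433-AS1 and ZNF136, all on the plus strand, were the genes of the stretch that were tested, and each passed the filter on low counts through HCT116 alone. Their direction was therefore fixed by the filter, and 15.1% of all tested genes fell. The read-through gene ZNF625-ZNF20, which joins its namesakes on the minus strand, had 0, 1 and 0 counts in DNMT3B KO, against 0, 39 and 30 in HCT116. HCT116 replicate 1, which had the highest count of ZNF20, had none of this read-through gene, and 51.5% of the 50-base stretches of ZNF20 are shared with it, so the division between them is uncertain. Of the 50-base stretches of ZNF440, ZNF700, ZNF136 and ZNF441, 92.1%, 81.7%, 99.3% and 100% occurred in no other annotated gene.

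**Figure D2:**
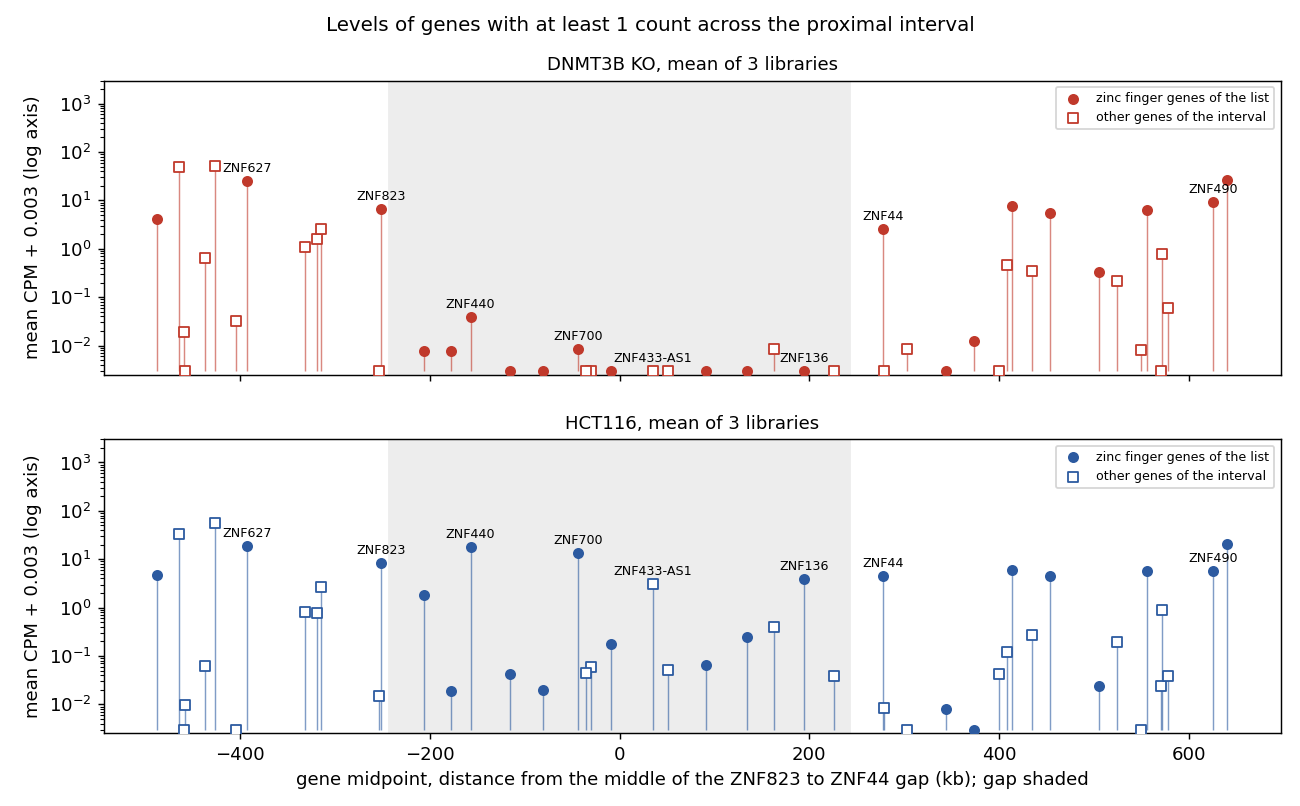
Mean normalised CPM plus 0.003 (log axis) of the genes of the proximal interval with at least 1 count, against the distance of the gene midpoint from the middle of the gap between ZNF823 and ZNF44 in kb, with DNMT3B KO above and HCT116 below (3 libraries each). Filled circles are zinc finger genes of the list, open squares other genes, and in the shaded gap the highest DNMT3B KO mean is ZNF440 at 0.0352 CPM, against 17.5 CPM in HCT116.

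The genes at the edges of the stretch kept their transcripts. Its limits were set by this after the values were seen, so it is a description and no separate result. ZNF823 (11721265 to 11739009), the last gene before it, had 6.78, 6.73 and 6.37 CPM in DNMT3B KO, against 8.25, 9.03 and 7.38 CPM in HCT116. The libraries of the lines did not overlap, but the difference did not pass (log2 fold change -0.31, standard error 0.14, adjusted p = 0.15 from edgeR). ZNF44 (12224686 to 12294883), the first gene after it, had 2.77, 2.48 and 2.48 CPM in DNMT3B KO, against 4.74, 4.54 and 4.38 CPM in HCT116. It fell by 0.82 on the log2 scale (standard error 0.17, adjusted p = 0.0097 from edgeR), a much smaller change than that of ZNF136 beside it. Both edge genes are on the minus strand.

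Beyond ZNF44, towards the centromere, ZNF563 and ZNF442 were silent in both lines, with at most 2 counts in a library. ZNF799, ZNF443 and ZNF564 did not pass, with log2 fold changes of 0.33, 0.30 and 0.13. ZNF490 had 8.33, 9.69 and 10.3 CPM in DNMT3B KO, against 5.86, 5.17 and 5.99 CPM in HCT116. ZNF490 rose by 0.74 in log2 units (standard error 0.15, adjusted p = 0.0090 from edgeR), with every DNMT3B KO library above every HCT116 library. ZNF791 and ZNF627, at opposite ends of the interval, rose by 0.41 and 0.48, with means of 26.9 and 25.6 CPM in DNMT3B KO, against 20.3 and 18.4 CPM in HCT116, and ZNF653, the first gene of the interval, did not pass (log2 fold change -0.15).

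ZNF709 was detected mainly in DNMT3B KO, at a low level. It had 0.208, 0.218 and 0.579 CPM in DNMT3B KO, against 0, 0.0628 and 0 CPM in HCT116 (adjusted p = 0.019 from edgeR). HCT116 was under the floor on average, with 0, 4 and 0 counts, and the gene passed the filter on low counts through DNMT3B KO alone, so the direction was fixed and the fitted fold change is not a measured size. Without HCT116 replicate 2, which held all of its HCT116 counts, the fitted log2 fold change was 7.40, against 3.81 with all libraries. Of its 50-base stretches 20.9% are unique and 76.3% are shared with AC008758.1, an overlapping gene on its strand that did not pass (log2 fold change 0.10), and its call was lost without DNMT3B KO replicate 3 (adjusted p = 0.079) and without HCT116 replicate 1 (adjusted p = 0.069). ZNF564 and ZNF490 also share 63.9% and 50.5% of these stretches with AC010422.6, and ZNF443 shares 30.5% with its paralogue ZNF799, so their counts are less certain than those of ZNF440 or ZNF136.

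In the distal interval, 1 gene was switched off and 3 others fell. ZNF266 (9412429 to 9435573, minus strand) had 0, 0.0335 and 0 CPM in DNMT3B KO libraries, against 12.4, 11.7 and 9.86 CPM in HCT116 libraries. Its 2 counts over the DNMT3B KO libraries put HCT116 at 1128-fold the DNMT3B KO level, with an exact 95% interval for counting error of 312 to 9319 (adjusted p = 7.5e-06 from edgeR), and 99.7% of its 50-base stretches are unique. ZNF560, next to it, was silent in both lines, with at most 1 count in a library.

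ZNF426 (9523223 to 9538645, minus strand) had 0.402, 0.302 and 0.335 CPM in DNMT3B KO, against 2.21, 3.31 and 3.59 CPM in HCT116. It kept a low level in every DNMT3B KO library, and it fell, with the HCT116 mean 8.77-fold the DNMT3B KO mean (adjusted p = 0.00021 from edgeR). ZNF846, at the proximal end of the interval, fell by 2.85 (standard error 0.45, adjusted p = 0.0025 from edgeR), but it was under 1 CPM in HCT116 and passed the filter on low counts through HCT116 alone, with 0.0648 ± 0.0168 CPM in DNMT3B KO and 0.481 ± 0.171 CPM in HCT116 (SD, n = 3 each).

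ZNF699 (9291140 to 9309838, minus strand) had 4.19, 3.72 and 4.33 CPM in DNMT3B KO, against 12.4, 13.7 and 7.26 CPM in HCT116. HCT116 replicate 3 was the lowest of its line and was still above all DNMT3B KO libraries. ZNF699 fell by 1.45 on the log2 scale (standard error 0.24, adjusted p = 0.0035 from edgeR).

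ZNF177 (9363013 to 9382617, plus strand), the gene next to ZNF266 on its distal side, moved the other way. It had 4.40, 5.69 and 4.98 CPM in DNMT3B KO, against 1.97, 2.39 and 1.55 CPM in HCT116, and rose by 1.35 in log2 units (standard error 0.23, adjusted p = 0.0034 from edgeR). The read-through gene ZNF559-ZNF177, which shares 86.6% of the 50-base stretches of ZNF177, rose by 1.41 (standard error 0.27, adjusted p = 0.0066 from edgeR). It had 1.84, 1.71 and 1.93 CPM in DNMT3B KO, against 0.512, 0.738 and 0.813 CPM in HCT116. The counts of these genes cannot be separated further, while ZNF559 itself did not pass, with 8.92, 12.6 and 9.54 CPM in DNMT3B KO and 9.53, 10.8 and 9.28 CPM in HCT116.

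The 3 most abundant members that did not pass were distal neighbours. ZNF121, reported elsewhere as a binding partner of MYC, had 87.8, 83.1 and 73.8 CPM in DNMT3B KO, against 67.6, 93.6 and 53.0 CPM in HCT116. HCT116 replicate 2 was above all other libraries, and the difference did not pass (log2 fold change 0.19, standard error 0.19, adjusted p = 0.50 from edgeR), whereas without that library the adjusted p was 0.026. ZNF562 had 51.3, 50.7 and 57.5 CPM in DNMT3B KO, against 50.3, 41.8 and 59.0 CPM in HCT116, and ZNF561 35.3, 40.4 and 35.9 CPM against 37.9, 35.1 and 39.9 CPM. The lines overlapped for both, with log2 fold changes of 0.08 and -0.02 (adjusted p = 0.70 and 0.91 from edgeR). ZNF561-AS1, a gene antisense to ZNF562, did not pass either (log2 fold change 0.43, adjusted p = 0.11 from edgeR). ZNF317, which had the highest level of the 36 genes per kb of exon in both lines (14.2 CPM per kb in DNMT3B KO and 11.3 CPM per kb in HCT116), rose by 0.34 (standard error 0.08, adjusted p = 0.019 from edgeR).

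**Figure D3:**
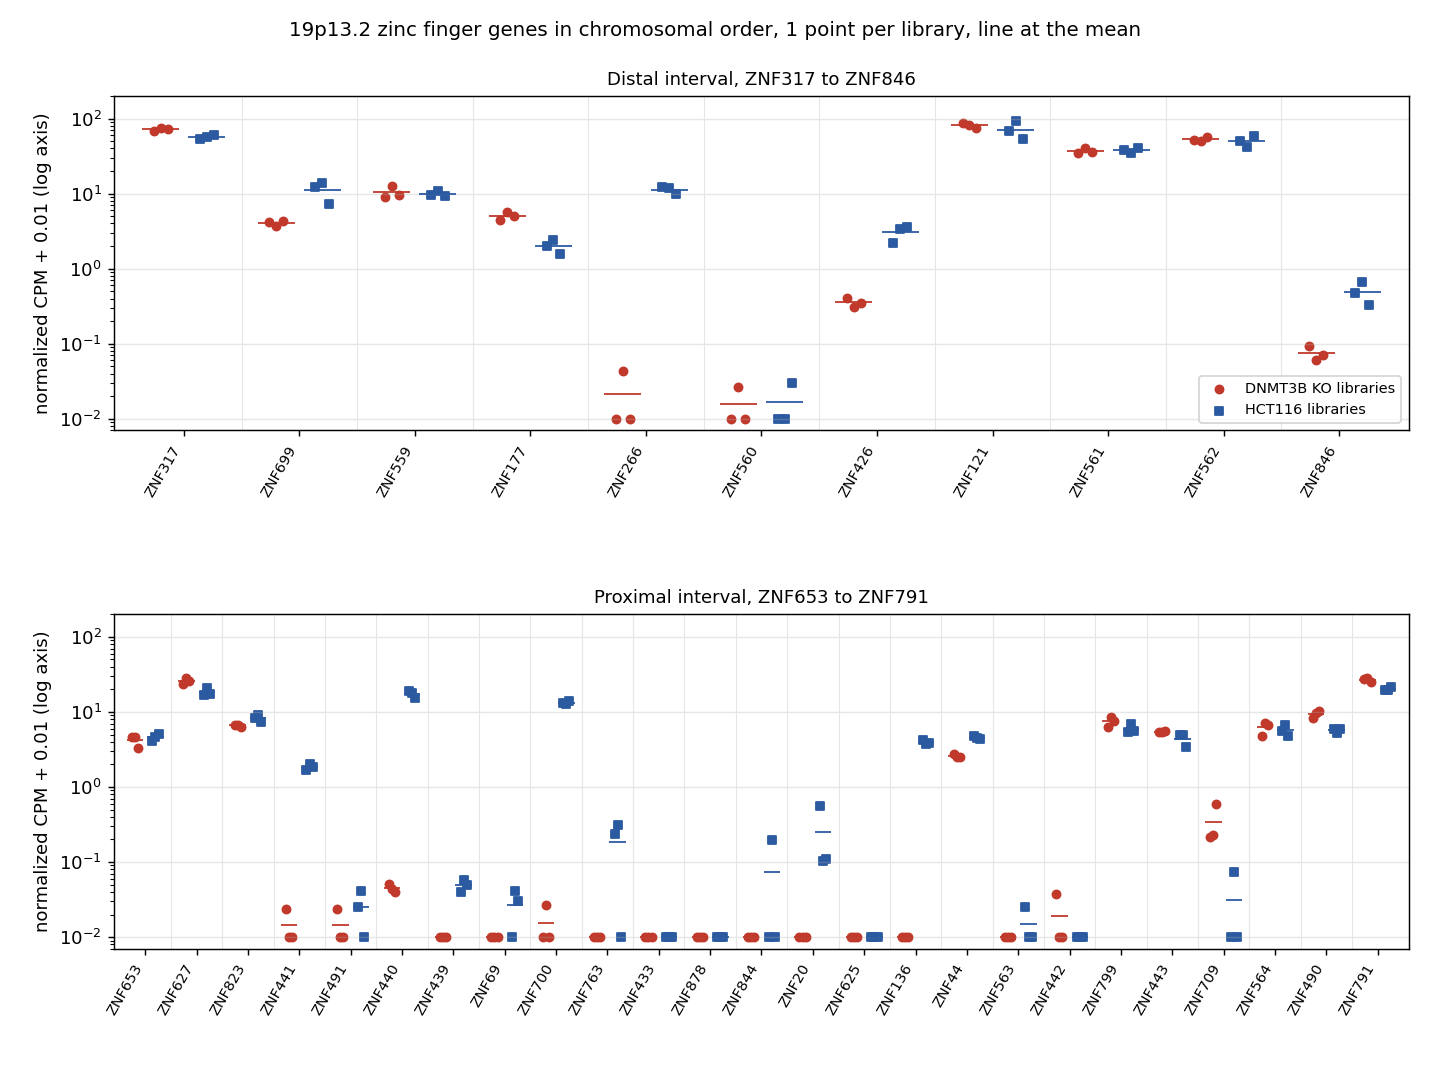
Normalised CPM plus 0.01 (log axis) of the 36 genes in chromosomal order, with the distal interval above and the proximal interval below, 1 point per library (3 DNMT3B KO as red circles, 3 HCT116 as blue squares) and a bar at each cell line's mean. From ZNF441 to ZNF136 all DNMT3B KO points are under 0.05 CPM, while HCT116 reaches 17.5 CPM on average at ZNF440, and ZNF266 shows the same drop in the distal interval.

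Over the whole list, 24 of the 36 genes passed the filter on low counts, and 6 rose, 9 fell and 9 did not pass, against 12.9% and 15.1% of all tested genes that rose and fell. The members that rose were ZNF317, ZNF177, ZNF627, ZNF709, ZNF490 and ZNF791, and those that fell were ZNF699, ZNF266, ZNF426, ZNF846, ZNF441, ZNF440, ZNF700, ZNF136 and ZNF44. The filter asked for about 0.155 CPM in 3 libraries. ZNF266, ZNF846, ZNF441, ZNF440, ZNF700 and ZNF136 met it through HCT116 alone and ZNF709 through DNMT3B KO alone, so these 7 had to differ in the direction they did. Among the 17 members that met it in both lines, 5 rose, 3 fell and 9 did not pass. The median log2 fold change of the 24 was 0.02, against -0.00 over all tested genes. Of 12 genes that did not pass the filter, 3 had a count in any DNMT3B KO library and 8 in any HCT116 library, and the highest mean among them was 0.00924 CPM in DNMT3B KO and 0.245 CPM in HCT116.

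Switched off means a called fall with less than 0.1 CPM on average in DNMT3B KO and 1 CPM or more in HCT116. This held for 5 genes of the list, ZNF266, ZNF441, ZNF440, ZNF700 and ZNF136, against 0.761% of all tested genes, and no member had the reverse levels, which 0.254% of all tested genes had with a call. Of the 24 tested members that is 20.8%, while 23 of 132 tested other ZNF genes on chromosome 19 (17.4%) and 7 of 202 on other chromosomes (3.47%) were switched off. In those families, 27 rose and 36 fell on chromosome 19, and 42 rose and 22 fell elsewhere. These lists were set side by side without a test between them. The libraries of the lines did not overlap for 17 of the 24 tested genes, against 45.9% of all tested genes. Members that met the filter through 1 line alone had no library of the other line over its cut. Their separation was therefore also fixed by the filter and is no separate result.

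All 9 falls, of which 6 had their direction fixed by the filter, held in every alternative that gave a value. Of the 6 rises, 4 lost their call in some fits with 1 library left out. The number of called genes over the whole table also dropped in those fits, from 4761 to between 3049 and 3148. The log2 fold changes of ZNF317, ZNF627 and ZNF791 were 0.29 to 0.47, 0.41 to 0.61 and 0.36 to 0.54 over all alternatives. The number of genes that fell stayed at 9 or 10 when any 1 library was left out. The number that rose was 2 without HCT116 replicate 1 and 3 without DNMT3B KO replicate 2 or 3. ZNF317 lost its call without HCT116 replicate 1 (adjusted p = 0.10) or any of the DNMT3B KO replicates (adjusted p = 0.054 to 0.083). ZNF627 lost it without DNMT3B KO replicate 2, DNMT3B KO replicate 3 or HCT116 replicate 1 (adjusted p = 0.073 to 0.10), and ZNF791 without DNMT3B KO replicate 1, DNMT3B KO replicate 2 or HCT116 replicate 1 (adjusted p = 0.087 to 0.096). ZNF177 and ZNF490 kept their calls in all of these fits.

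**Figure D4:**
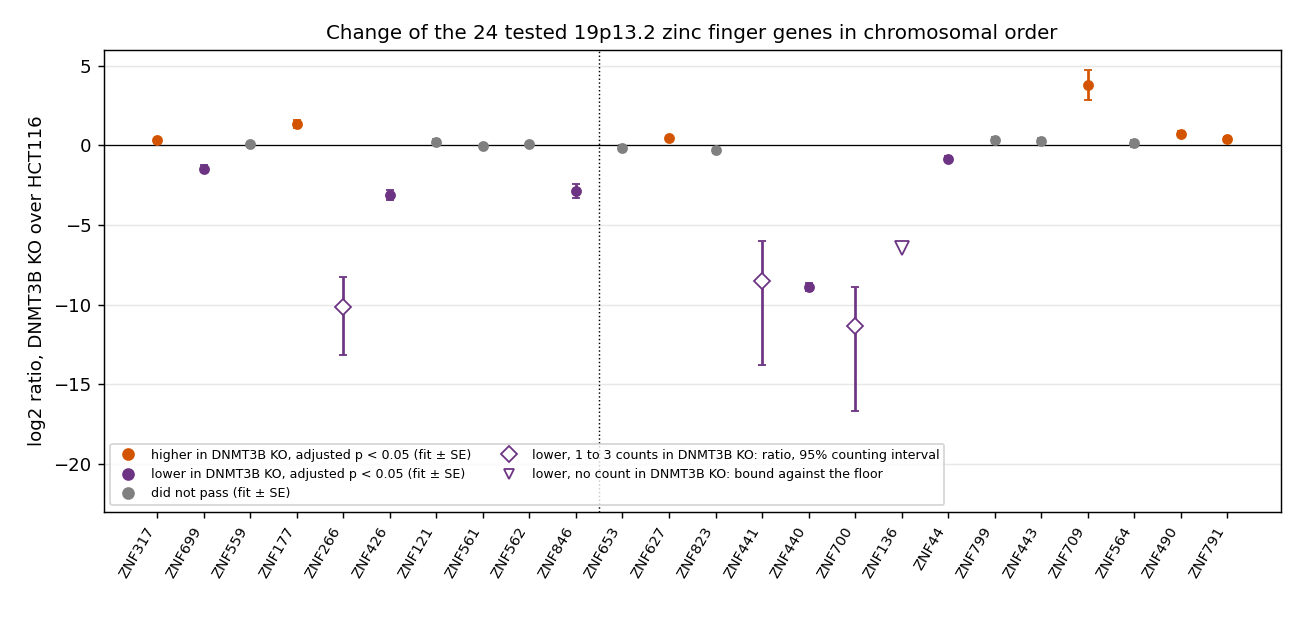
Log2 ratio of DNMT3B KO to HCT116 for the 24 tested genes in chromosomal order, with the dotted line between the intervals. Filled points are fitted values ± standard error, open diamonds ratios of genes with 1 to 3 counts in DNMT3B KO with the exact 95% counting interval, and the open triangle the bound for ZNF136 (at least 85.8-fold lower); ZNF44, next to ZNF136, is at -0.82. The point of ZNF709 is a fitted value against HCT116 libraries with 0, 4 and 0 counts.

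Among the other genes of the intervals, read-through and antisense genes of members apart, 12 of 72 passed the filter, of which 4 rose and 8 did not pass, 33.3% against 28.1% of all tested genes. Without DNMT3B KO replicate 2 or 3 or HCT116 replicate 1, 2 of them changed. ECSIT, which encodes an assembly factor of mitochondrial complex I, rose to 50.4, 49.2 and 48.0 CPM in DNMT3B KO, against 32.8, 32.1 and 34.5 CPM in HCT116 (log2 fold change 0.57, standard error 0.08, adjusted p = 0.0014 from edgeR). The long non-coding gene AC008543.1, between ZNF627 and ZNF823, rose by 1.05 (adjusted p = 0.018 from edgeR). The smooth muscle gene CNN1 and the long non-coding gene AC008758.4 were under 1 CPM in both lines and passed the filter through DNMT3B KO alone, which fixed their direction. ELOF1, an elongation factor gene beside ZNF627, did not pass (log2 fold change -0.16). Of 18 tested genes that start before the first or after the last member start of an interval, up to 100 kb outside it (a distance chosen after values were seen), 1 rose, 3 fell and 14 did not pass. Over all tested genes, 12.9% rose and 15.1% fell. CCDC151 rose by 1.94 and its neighbour PRKCSH fell by 1.01, while AC010422.3 and MAN2B1 fell by 0.66 and 1.16 (adjusted p = 0.0029, 0.00045, 0.028 and 0.00026 from edgeR).

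The list of corepressor genes holds 43 genes that KRAB zinc finger proteins work through or that act in DNA methylation. Of these, 42 had at least 1 CPM on average in each line. TRIM28 had 806, 903 and 858 CPM in DNMT3B KO, against 890, 742 and 1125 CPM in HCT116. The lines overlapped, and the difference did not pass (log2 fold change -0.10, standard error 0.15, adjusted p = 0.66 from edgeR). SETDB1 had 47.7, 46.8 and 47.7 CPM in DNMT3B KO, against 61.2, 59.4 and 55.3 CPM in HCT116, and fell by 0.31 (standard error 0.08, adjusted p = 0.024 from edgeR). Of 42 tested genes of this list, which holds the NuRD, HUSH, HP1 and DNA methylation proteins, 8 rose, 4 fell and 30 did not pass, 28.6% in all against 28.1% of all tested genes. DNMT3B was one of those that fell, and ZFP57 did not pass the filter on low counts. The NuRD subunit genes moved both ways. HDAC1 and MTA1 fell by 0.89 and 0.77 (adjusted p = 0.00013 and 0.00095 from edgeR). RBBP4, a histone-binding protein shared by NuRD and other complexes, rose by 0.52 (adjusted p = 0.0030 from edgeR). CHD3 and MTA2 rose by 0.39 and 0.43 (adjusted p = 0.0098 and 0.015 from edgeR). CHD4, HDAC2, MBD2, MBD3, RBBP7, GATAD2A and GATAD2B did not pass. Outside NuRD, ATF7IP2 and ZNF274 rose by 1.05 and 0.58 (adjusted p = 0.0068 and 0.010 from edgeR). MPHOSPH8, DNMT3A and ATRX rose by 0.32, 0.40 and 0.33 (adjusted p = 0.021, 0.029 and 0.037 from edgeR). Without DNMT3B KO replicate 1, 2 or 3 or HCT116 replicate 1, 7 genes of the list changed in each fit.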

How the data were processed

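RNA-seq libraries of DNMT3B KO and HCT116 cells, 3 each, came from a strand-specific poly(A) kit, with paired reads of 50 bases. The authors used STAR for alignment to hg38 and Salmon for quantification, and the deposited values are estimated counts per gene scaled for gene length. They were rounded to whole numbers here.

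After filterByExpr and TMM normalisation, the 16959 genes left entered the two-sided quasi-likelihood test in edgeR 4.0.16 (R 4.3.3) on genotype alone. Benjamini-Hochberg adjustment covered every tested gene, and the threshold was 0.05. The standard error is the size of the log2 fold change divided by the square root of F. Fold changes are DNMT3B KO over HCT116. Alternatives used RLE factors, no factors, DESeq2 1.42.0, limma-voom (limma 3.58.1), other filters, a replicate block, a threshold of 0.01, wider CPM limits and each library left out. The fit was tested on simulated data.

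Positions, merged exon lengths and 50-base stretches came from GENCODE 44 on hg38, which placed 60437 of the 60666 listed genes. Intervals were split at gaps over 1 Mb. Stretches shared with other annotated genes mark counts that the authors' estimation may divide differently. Levels were compared between genes per kb of merged exons.

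Named with values were members called with at least 1 CPM in one line and a log2 fold change of at least 1 in size, the 4 members most abundant in DNMT3B KO that were not called, and DNMT3B, TRIM28, SETDB1 and the called corepressor and interval genes of smallest adjusted p. Others were named to account for the list. The members, lists and rules were chosen with earlier results of these data known.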

Additional observations from a re-analysis of the deposited data

How the results depend on the processing

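The number of genes of the list that fell and the number switched off varied least. The first was 9 to 11 in all alternatives but 1, with 8 under the stricter filter of 1 CPM in 3 libraries. The switched-off number was 5 in every alternative, including wider CPM limits (under 0.2 and at least 0.5). The means of these 5 genes were at most 0.0352 CPM in DNMT3B KO and at least 1.84 CPM in HCT116. Changes of scaling or test could therefore hardly move that number. These 5 genes, and ZNF846 among the falls, met the filter on low counts through HCT116 alone, so their stability is no separate result. ZNF846, with 0.481 CPM in HCT116, was just under the wider limit. With DESeq2 and with no filter, ZNF763 and ZNF20, which the usual filter removed, were also called lower, and so was ZNF763 without HCT116 replicate 3. At a threshold of 0.01, 2648 of all genes, 2 rises of the list, 6 corepressor genes and 2 other genes of the intervals passed. With no scaling factors, 20 corepressor genes changed and the median log2 fold change of all tested genes was 0.13. Under the stricter filter, 2 other genes of the intervals changed. With each library left out in turn, the counts ranged from 3049 to 5924 for all genes, 2 to 7 for rises of the list, 7 to 16 for corepressor genes and 2 to 4 for other genes of the intervals. Log2 fold changes near 0 changed sign for ZNF559 (-0.10 to 0.16), ZNF561 (-0.080 to 0.029, and 0.12 with no scaling factors) and ZNF562 (-0.049 to 0.21), and the cause was not tested.

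Whether libraries with the same replicate number were prepared together is not stated. The deviations of same-numbered libraries from their line's mean correlated at 0.0641, -0.00963 and 0.122 for replicates 1, 2 and 3. DNMT3B KO replicates 1 and 2 did not correlate best with their own number, whereas replicate 3 did. These small correlations cannot settle whether the replicates were paired. With the replicate block, 4214 of all genes, 5 rises and 9 falls of the list, 5 switched off, 11 corepressor genes and 3 other genes of the intervals were called, and of the members ZNF791 changed side (adjusted p = 0.055). Depth limits the genes at the floor in both lines, for which no difference could be detected.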
